A study of Homo sapiens with 6 samples.

Results

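Genes of the ATF4 programme were followed in the RNA that came down with PTBP1, an RNA-binding protein, and none of them passed the test between cells without the long noncoding RNA DCRT and wild-type cells. The set holds the 10 rows of the deposited table, of 20024 in all, named ATF4, DDIT3, TRIB3, SESN2, CHAC1, PHGDH, PSAT1, ASNS, SLC7A5 and SLC3A2. PTBP1 RIP-seq pulls the protein down with an antibody and sequences the RNA that comes with it. There were 3 libraries from DCRT-KO cells and 3 from wild-type (WT) cells, all of AC16, a line labelled as cardiomyocytes from heart, and all with the PTBP1 antibody. No treatment or time point is given in the labels, and they do not say how the knockout was made, whether it is 1 clone, or whether replicates were separate cultures. P-values therefore rest on the spread among these 6 libraries alone, and that spread may be technical. Input RNA and control antibody libraries were not analysed here, so a difference can lie in transcript abundance, in PTBP1 binding or in RNA carried along unbound, which cannot be told apart.

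The integrated stress response begins with kinases that sense amino acid shortage, misfolded protein, viral RNA or mitochondrial stress and phosphorylate the initiation factor eIF2. Phosphorylated eIF2 slows most translation but favours that of ATF4 mRNA, whose upstream reading frames otherwise hold ribosomes back. ATF4 is a bZIP transcription factor that switches on genes for amino acid synthesis and uptake together with genes that feed back on the stress. The response is thus partly translational, and mRNA levels of ATF4 itself do not read it out directly. In the heart, mitochondrial dysfunction is a known trigger.

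Many ATF4 targets carry a composite C/EBP-ATF response element, which ATF4 binds together with a C/EBP partner. The letters TGATGNAA or their reverse complement TTNCATCA were looked for on both strands, from 250 bases before to 50 bases after each gene start, in RefSeq sequence of GRCh38.p14. All 10 genes had at least 1 start in that table, with 17 starts in all, and 3 genes held a match: ASNS, CHAC1 and SLC3A2. Among all 35116 windows of that length, 3.62% held one. That share counts windows, of which the 10 genes had 17, and the share of all genes with a match was not worked out. The matches are shown because they have the letters looked for, which are in capitals. Whether ATF4 binds them was not tested.
ASNS: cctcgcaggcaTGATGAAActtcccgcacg
CHAC1: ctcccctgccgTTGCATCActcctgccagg
SLC3A2: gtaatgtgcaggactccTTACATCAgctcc
The ASNS window lies at chr7:97872458-97872487 on the minus strand, with the match at positions -68 to -61 relative to a RefSeq start. That of CHAC1 lies at chr15:40953251-40953280 on the plus strand, with its match at -209 to -202. That of SLC3A2 lies at chr11:62881719-62881748 on the plus strand, with its match 37 to 44 bases after a start, inside the transcript. A match is a description of letters, and elements of other genes can lie outside these windows or differ in a letter.

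Levels are given in FPKM, fragments scaled to the gene length in the table and to the library total. How levels compare between genes depends on the length used, as given further on. Whole reads worked back from these values totalled 1798841 to 2589080 in the WT and 373354 to 1380722 in the DCRT-KO libraries. The deepest DCRT-KO library was shallower than the shallowest WT one, so depth and genotype cannot be told apart. Mitochondrially encoded genes took 29.9% to 36.6% of a WT library's summed FPKM, and 34.2%, 23.9% and 22.05% of those of DCRT-KO 1, 2 and 3. No row is named DCRT, so the knockout was not checked. PTBP1 mRNA, which encodes the antibody target, had 118 ± 11.7 FPKM in WT against 119 ± 17.2 in DCRT-KO (SD, n = 3 each). Of 12 cardiomyocyte markers, 7 had no read in any library (TNNT2, TNNI3, MYH6, MYH7, ACTN2, MYL7 and NKX2-5), and only TTN and NPPB reached a mean of 1 FPKM, so these libraries carry little of the labelled cell type's defining mRNA. Summed over the list, the 12 markers had 4.23 to 6.45 FPKM in WT and 1.59 to 14.6 in DCRT-KO, where the highest sum, in library 2, holds 4.78 FPKM of NPPA and 7.57 of NPPB from 2 reads each. TTN, the most abundant of them, averaged 4.36 FPKM in WT and 2.41 in DCRT-KO (adjusted p = 0.213 in limma; 0.023 with voom). The 9 fibroblast markers summed to 17.2 to 20.3 FPKM in WT and 8.41 to 11.1 in DCRT-KO, almost all of it PDGFRA, which had lower values in DCRT-KO (log2 difference -0.81, adjusted p = 0.0528 in limma, the test described next; 0.0121 with voom, described further on), while COL1A2, DCN, LUM and POSTN had no read. The 4 endothelial markers summed to at most 3.03 FPKM in any library, with PECAM1 the highest, and the 5 blood and immune markers to at most 2.61. In these bulk PTBP1 RIP samples, fewer cells of a type, less RNA per cell, PTBP1 binding and RNA carried along unbound cannot be told apart. The part of these markers in the results below was not tested.

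Differences were tested with limma on log2(FPKM + 1) over the 11445 genes averaging 1 FPKM or more, with Benjamini-Hochberg adjustment, and are given as DCRT-KO minus WT with their SE. Adding 1 before the logarithm understates changes of low genes. Of all tested genes, 3.55% passed an adjusted p below 0.05, with 269 higher and 137 lower in DCRT-KO. That background depends on single libraries. Without WT library a, b or c there were 4, 8 and 0 higher and no lower genes in limma, without DCRT-KO library 1 there were 135 and 70, without library 2 there were 42 and 23, and without library 3 there were 724 and 836. The split turned to 219 higher and 231 lower with quantile normalization and to 186 and 328 when mitochondrially encoded genes were left out of the total.

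Of the 10 genes, 9 were tested and 0 passed, against 3.55% of all genes. DDIT3 fell short of 1 FPKM. With an unadjusted p below 0.05 there were 3 of 9, PHGDH and TRIB3 with higher and SESN2 with lower values in DCRT-KO, against 23.6% of all tested genes. When whole reads were tested with voom, which weights each value by its depth, PHGDH passed and the other 8 did not, against 9.24% of all genes (5.85% higher and 3.4% lower), and 3 of 9 had an unadjusted p below 0.05, against 24% of all genes. The WT and DCRT-KO values did not overlap in 3 of 9 genes, PHGDH, SESN2 and SLC3A2, against 30.3% of all tested genes. That share, 33.3%, lies near the background. In limma, 6 of 9 had higher values in DCRT-KO and their median log2 difference was 0.14, against 5400 of 11445 higher and a median of -0.04 for all tested genes.

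**Figure D1:**
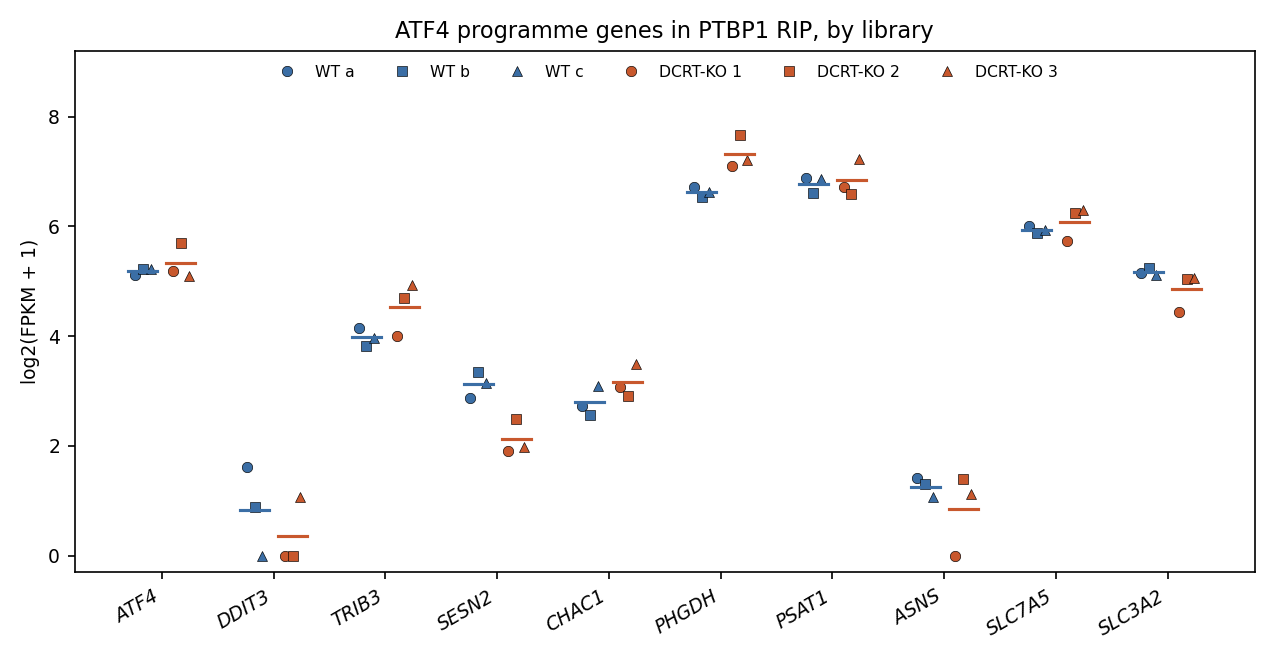
Level of each of the 10 ATF4 programme genes in PTBP1 RIP, as log2(FPKM + 1) on the vertical axis, in 3 WT libraries (blue) and 3 DCRT-KO libraries (orange), with a bar at the mean of the plotted values and a symbol shape for each library within its group. SESN2 is lower and PHGDH higher in all 3 DCRT-KO libraries than in any WT library, while ATF4 is above the WT values in DCRT-KO library 2 alone.

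Among the transcription factors, ATF4 mRNA (ENSG00000128272, chromosome 22, 39519695 to 39522685, positions as deposited, which match GRCh38) had 33.6, 36.5 and 36.4 FPKM in WT libraries a, b and c. In DCRT-KO libraries 1, 2 and 3 it had 35.4, 51.1 and 33.4 FPKM. Libraries 1 and 3 lay within or just below the WT values and only library 2, the shallowest with 48 ATF4 reads, lay above them. The means were 35.5 ± 1.63 FPKM in WT against 39.98 ± 9.71 in DCRT-KO (SD, n = 3 each), with a log2 difference of 0.14 ± 0.19 SE (limma adjusted p = 0.684). The 95% interval of that difference ran from -0.29 to 0.57, so on this scale a fall to below 0.821 times or a rise to above 1.48 times the WT level lay outside it. The direction rests on library 2: without it the difference was -0.045, and it was -0.0083 when mitochondrially encoded genes were left out of the total, a scaling that moved the median of all genes from -0.04 to -0.17. Relative to that median, ATF4 was at 0.16 with this scaling and 0.18 without it. GENCODE 29 lists 4 pseudogene copies of ATF4 (ATF4P1 to ATF4P4), and how reads shared with them were counted is not given.

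DDIT3 encodes CHOP, a partner and target of ATF4 that drives cell death when stress lasts. It was close to absent, with 7, 2 and 0 reads in WT libraries a, b and c, against 0, 0 and 2 in DCRT-KO libraries 1, 2 and 3 (2.07, 0.851, 0, 0, 0 and 1.11 FPKM). Groups overlapped, and a count of 0 allows up to 5.68 RPM, scaled by each library's total reads, in DCRT-KO library 1 and 8.04 in library 2, above the 1.395 pooled over WT. A fall in DDIT3 was thus not detectable at this depth. The gene (ENSG00000175197, chromosome 12, 57516588 to 57521737) overlaps MARS and MBD6 on the other strand in GENCODE 29, and whether counting used strand is not given.

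Of the feedback and effector genes, TRIB3 encodes a pseudokinase that is induced by ATF4 and CHOP and restrains them in turn. TRIB3 (ENSG00000101255, chromosome 20, 362835 to 397559) had 16.7, 13.2 and 14.6 FPKM in WT libraries a, b and c, against 14.99, 24.8 and 29.4 in DCRT-KO libraries 1, 2 and 3. DCRT-KO libraries 2 and 3 stood above all WT libraries and library 1 among them. The mean went from 14.8 ± 1.76 to 23.05 ± 7.35 FPKM, a ratio of 1.55, with a log2 difference of 0.56 ± 0.25 SE that did not pass (limma adjusted p = 0.21). With any 1 library left out it ran from 0.36 without DCRT-KO library 3 (adjusted p = 0.324) to 0.83 without library 1 (adjusted p = 0.0627), and it was 0.29 with each library's GC trend removed (adjusted p = 0.508).

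SESN2 encodes sestrin 2, which senses leucine, holds back the growth kinase complex mTORC1 and is induced by ATF4 under amino acid shortage. The gene (ENSG00000130766, chromosome 1, 28259518 to 28282491) had 6.36, 9.15 and 7.84 FPKM in WT libraries a, b and c, from 57, 57 and 56 reads. In DCRT-KO libraries 1, 2 and 3 it had 2.73, 4.64 and 2.93 FPKM, from 5, 6 and 14 reads. All 3 DCRT-KO libraries were below all WT libraries, and the mean of 3.43 ± 1.05 FPKM was 2.27-fold below the WT mean of 7.78 ± 1.40. The log2 difference was -0.999 ± 0.257 SE, with a 95% interval from -1.58 to -0.42, and missed the threshold (limma adjusted p = 0.0618; 0.0648 with voom). It passed with mitochondrially encoded genes left out of the total (log2 difference -1.13, limma adjusted p = 0.0408). That scaling lowered the median of all genes from -0.04 to -0.17, and relative to that median SESN2 was at -0.96 with and without it. It also passed with each library's GC trend removed (-1.23, adjusted p = 0.0494). It was -0.89 to -1.19 with any 1 library left out (adjusted p 0.0624 to 0.253).

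The remaining sestrin genes were picked once their values had been seen. SESN3 had 3.25, 5.42 and 4.17 FPKM in WT libraries, against 0.358, 1.01 and 1.71 in DCRT-KO libraries 1, 2 and 3, with no overlap (log2 difference -1.42 ± 0.34 SE, limma adjusted p = 0.0534; 0.0181 with voom). SESN1, mainly a p53 target, had 12, 17 and 29 reads in WT against 0, 0 and 6 in DCRT-KO libraries 1, 2 and 3 (log2 difference -1.15 ± 0.41 SE, limma adjusted p = 0.13). SESN2 and SESN3 were lower in every DCRT-KO library than in any WT library, as were 14.8% of all tested genes. For SESN1 that order is not shown, since 0 reads in DCRT-KO libraries 1 and 2 lie under the depth floor and library 3 had 0.849 FPKM against 0.905 in WT library a. None of the 3 passed in limma with all libraries. Without DCRT-KO library 3, SESN1 and SESN3 passed (log2 differences -1.45 and -1.65, adjusted p 0.0493 and 0.0205), in a setting in which 724 higher and 836 lower genes of 11420 passed. Without both shallowest libraries, which leaves 1 DCRT-KO library assumed to vary like the WT ones, the differences of SESN1, SESN2 and SESN3 were -0.56, -1.15 and -0.94.

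CHAC1 (ENSG00000128965, chromosome 15, 40952962 to 40956512) encodes a gamma-glutamylcyclotransferase that breaks down glutathione and is an ATF4 and CHOP target. Its 5.65, 4.88 and 7.56 FPKM in WT libraries a, b and c overlapped with 7.38, 6.53 and 10.2 in DCRT-KO libraries 1, 2 and 3. The highest value, in DCRT-KO library 3, rests on 29 reads and the values of libraries 1 and 2 on 8 and 5. The log2 difference was 0.36 ± 0.25 SE (limma adjusted p = 0.397). It was 0.085 with the GC trend removed and 0.695 without both shallowest libraries.

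PHGDH and PSAT1 catalyse the first and second steps of serine synthesis from the glycolytic intermediate 3-phosphoglycerate. PHGDH (ENSG00000092621, chromosome 1, 119648411 to 119744226) had 105, 91.2 and 98.3 FPKM in WT libraries a, b and c, against 136, 202 and 147 in DCRT-KO libraries 1, 2 and 3. No DCRT-KO value overlapped with WT, from 660, 695 and 1869 reads against 2499, 1512 and 1868. The mean went from 98.1 ± 6.77 to 161 ± 35.5 FPKM, a ratio of 1.65, with a log2 difference of 0.69 ± 0.18 SE and a 95% interval from 0.28 to 1.11. It missed the threshold in limma (adjusted p = 0.0673) and passed with voom (log2 difference 0.69, adjusted p = 0.00721) and without DCRT-KO library 3 (0.75, adjusted p = 0.0402). Both settings called more genes than the main fit: 9.24% of all tested genes with voom, and 724 higher and 836 lower of 11420 without library 3. With quantile normalization the difference was 0.37 (adjusted p = 0.134) and with each library's GC trend removed 0.49 (adjusted p = 0.16).

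PSAT1, the next enzyme, did not share that pattern by its values. The gene (ENSG00000135069, chromosome 9, 78297125 to 78330093) had 117, 96.0 and 115 FPKM in WT libraries a, b and c, against 105, 95.9 and 148 in DCRT-KO libraries 1, 2 and 3, of which only library 3 was above WT. The log2 difference was 0.07 ± 0.19 SE, with a 95% interval from -0.37 to 0.50 (limma adjusted p = 0.863), and its sign changed to -0.12 without DCRT-KO library 3, to -0.024 without WT library b, to -0.17 with quantile normalization and to -0.086 with mitochondrially encoded genes left out, where it was 0.08 relative to the median of all genes. The difference between the responses of PHGDH and PSAT1 was not tested. GENCODE 29 lists 4 pseudogene copies of PSAT1, 4 of ASNS and 2 of SLC7A5, so their counts are uncertain to that extent. ASNS and SLC7A5 also overlap another gene on the opposite strand there.

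ASNS (ENSG00000070669, chromosome 7, 97851677 to 97872542) makes asparagine from aspartate and glutamine and is a classic ATF4 target through the promoter element shown above. It was near the floor, with 21, 13 and 11 reads in WT libraries a, b and c, or 1.66, 1.48 and 1.09 FPKM. In DCRT-KO libraries 1, 2 and 3 it had 0, 3 and 8 reads (0, 1.64 and 1.18 FPKM). Libraries 2 and 3 lay within the WT range and only library 1 at 0. The log2 difference of -0.42 ± 0.41 SE did not pass (limma adjusted p = 0.567) and was 0.0037 without DCRT-KO library 1.

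SLC7A5 and SLC3A2 encode the light chain LAT1 and the heavy chain 4F2hc of the heterodimer that carries large neutral amino acids, leucine among them, into the cell. SLC7A5 (ENSG00000103257, chromosome 16, 87830023 to 87869507) had 63.2, 58.0 and 60.2 FPKM in WT libraries a, b and c, against 52.0, 74.8 and 77.2 in DCRT-KO libraries 1, 2 and 3. DCRT-KO library 1 lay below and libraries 2 and 3 above all WT libraries (log2 difference 0.15 ± 0.18 SE, limma adjusted p = 0.661). That difference was -0.0016 with quantile normalization and -0.12 with the GC trend removed. With mitochondrially encoded genes left out it was -0.0056, but relative to the median of all genes it was 0.16 there and 0.18 before. SLC3A2 (ENSG00000168003, chromosome 11, 62856102 to 62888875) had 34.6, 36.9 and 33.8 FPKM in WT libraries, against 20.8, 32.1 and 32.5 in DCRT-KO libraries 1, 2 and 3. All DCRT-KO values were below all WT values, libraries 2 and 3 by little (log2 difference -0.32 ± 0.20 SE, 95% interval -0.77 to 0.12, limma adjusted p = 0.355). The difference was -0.12 without DCRT-KO library 1.

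**Figure D2:**
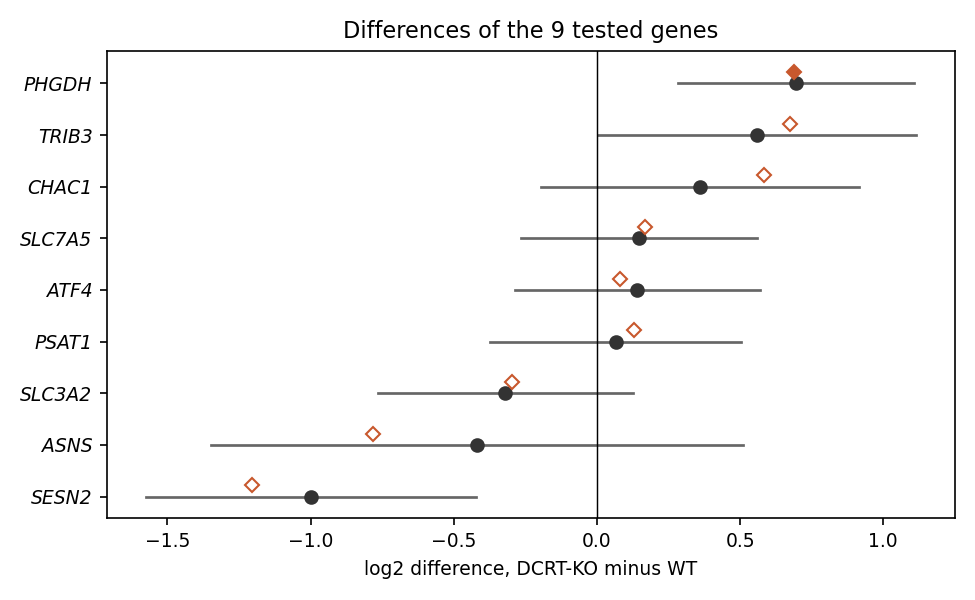
Log2 difference between DCRT-KO and WT PTBP1 RIP (horizontal axis) for the 9 tested genes. Black points and lines are limma values on log2(FPKM + 1) with 95% intervals before adjustment for multiple tests, and diamonds are voom values on whole reads, filled where the adjusted p was below 0.05, which holds for PHGDH alone.

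The levels of the 10 genes spanned a wide range in WT. PSAT1 and PHGDH were highest, with overlapping values, and both stood above 99% of all listed genes (percentiles 99.3 and 99.2). SLC7A5 followed, then ATF4 and SLC3A2 at 35.5 and 35.1 FPKM with overlapping values, then TRIB3. SESN2 and CHAC1 overlapped at 7.78 and 6.03 FPKM, and ASNS and DDIT3 at 1.41 and 0.973. In DCRT-KO, PHGDH and PSAT1 were again the highest, with overlapping values. Further down, the values of SLC3A2 and TRIB3 overlapped, and SESN2 came after CHAC1, at 3.43 and 8.05 FPKM with no overlap. The order depends on the gene length that was used. The table gives 9217 bases for PHGDH, which equals the summed exons of all its GENCODE 29 transcripts, while its principal transcript has 2585 bases. Per base of principal transcript, PHGDH would have 349.6 and PSAT1 110.3 FPKM in WT, and SLC3A2 84.1 against 63.5 for SLC7A5 and 44.2 for ATF4. The length is the same in both groups, but for low genes it sets how much adding 1 shrinks a difference: that of ASNS was -1.29 with a pseudocount of 0.1.

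PTBP1 binds pyrimidine-rich RNA, for which UCUU is a known core. TCTT was counted on the transcript strand of 1 principal GENCODE 29 transcript per gene, overlaps included. The median over 11425 tested genes was 4.98 per kilobase. PHGDH and SESN2 had 2.71 and 2.61 per kilobase, at percentiles 14.7 and 13.6, and PSAT1 had the most of the 10 at 6.86, at percentile 81.1. ATF4 had 3.96 per kilobase. For ATF4 and for the 2 genes with the lowest unadjusted p, 30 bases with the most copies are shown, with TCTT in capitals. Where windows tied, the first in the transcript was taken. No window of PHGDH held more than 1 of its 7 copies, so the window shown just holds the first copy.
ATF4: gttgcccccttcacctTCTTacaaccTCTT
SESN2: ctgtgaattacgacttcTCTTgccctTCTT
PHGDH: ctgtggggaagggagcggccggcgggTCTT
The ATF4 window is coding (chr22:39522006-39522035, plus strand, GRCh38), that of SESN2 is in the 3′ UTR (chr1:28282106-28282135, plus strand), and that of PHGDH is in the 5′ UTR (chr1:119648450-119648479, plus strand). Of all 30-base windows of the tested transcripts, 1.24% held at least 2 copies and 13% at least 1. Each window shown is the richest of its transcript, so these shares of single windows do not say how unusual it is. The share of transcripts with such a window was not worked out. Across the tested genes, the log2 difference had a Spearman correlation of 0.42 with GC content and -0.33 with TCTT per kilobase, values given as a description over genes that share the same 6 libraries. GC content was 58.3% in PHGDH and 59.5% in SESN2, at percentiles 79.4 and 83.2. Of the 2, PHGDH thus lay on the side of the GC trend and SESN2 against it.

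Each gene was then set beside the tested genes within 5 Mb on either side. SESN2 had 115 such neighbours with a median log2 difference of 0.05, and 4 of them lay below it. PHGDH had 23 neighbours with a median of 0.16, none above it. Around TRIB3, 45 of 52 neighbours had higher values in DCRT-KO, with a median of 0.36 against its own 0.56. SLC3A2 had 165 neighbours with a median of 0.16, ASNS 81 with 0.23, ATF4 104 with 0.21 and SLC7A5 60 with 0.19. CHAC1 had 80 with -0.16 and PSAT1 14 with -0.11. The values of SESN2, ASNS and SLC3A2 were thus opposite in sign to the median of their surroundings, as was that of CHAC1 and of PSAT1. The sign changed in 1 of 16 alternatives for ASNS and in 4 of 17 for PSAT1. SESN2, SLC3A2 and CHAC1 kept theirs, but none of these genes passed in limma with all libraries. Whether a gene differs from its neighbours was not tested, so the contrast is not established for any of these genes.

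**Figure D3:**
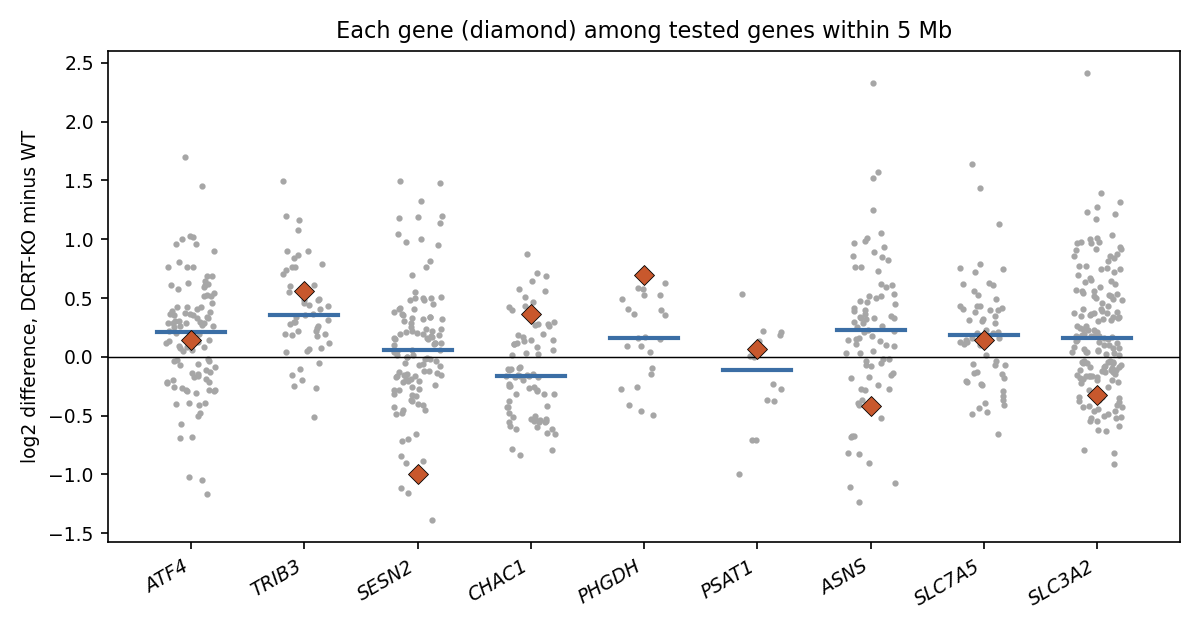
Log2 difference between DCRT-KO and WT PTBP1 RIP (vertical axis) for the 9 tested ATF4 programme genes (orange diamonds) and for every tested gene within 5 Mb of each (grey points), with a blue bar at the neighbours' median. PHGDH lies above all 23 of its neighbours and SESN2 below all but 4 of 115.

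The rest of the pathway was described by 8 lists with 87 genes, of which 82 were tested. In limma 0 rose and 1 fell, against 2.35% and 1.2% of all tested genes. An unadjusted p below 0.05 was reached by 25 of 82 in limma and 25 in voom, against 23.6% and 24% of all tested genes. Higher values were seen in 49 of 82, against 47.2% of all tested genes, and lower ones in 33, with a median log2 difference of 0.08. With voom 4 rose (GCN1, EPRS, SARS and HSPA5) and 3 fell (SLC7A11, SLC38A2 and SESN3), names that, apart from SLC7A11 and SARS, were added knowing their values; of all tested genes 5.85% rose and 3.4% fell with voom. The single gene that fell in limma was SLC7A11, the cystine importer of the xCT exchanger and a target of both ATF4 and NRF2. It had 12.7, 14.9 and 14.98 FPKM in WT against 3.34, 6.39 and 6.38 in DCRT-KO libraries 1, 2 and 3 (log2 difference -1.29 ± 0.25 SE, limma adjusted p = 0.0322). That call was lost without WT library a, b or c (adjusted p 0.117, 0.157 and 0.138), without DCRT-KO library 2 (0.0625) and with the GC trend removed (-0.84, 0.0958).

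Upstream of ATF4, none of 18 genes for the eIF2 kinases, eIF2, its exchange factor eIF2B and its phosphatase passed in limma. An unadjusted p below 0.05 was reached by 5 of 18 in limma, against 23.6% of all tested genes. With voom 1 rose, against 5.85% of all tested genes. The signs of the 18 genes were split, with 9 higher and 9 lower values and a median of 0.00. PPP1R15B, the constitutive partner of the eIF2 phosphatase, had 78.2 ± 4.08 FPKM in WT against 68.7 ± 7.43 in DCRT-KO (log2 difference -0.19, limma adjusted p = 0.475). EIF2S3, the gamma subunit of eIF2, had 55.8 ± 5.52 and 54.6 ± 1.07 FPKM (-0.03, adjusted p = 0.926). With voom GCN1, the activator of the amino acid sensing kinase GCN2, rose (log2 difference 0.71, adjusted p = 0.0305; 0.103 in limma).

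Of 6 partner and related bZIP factors, 3 were tested and none passed in limma or voom, with 2 higher and 1 lower. In each test 1 had an unadjusted p below 0.05, against 23.6% and 24% of all tested genes. CEBPG, a dimer partner of ATF4, had 6.41 ± 1.73 FPKM in WT against 10.8 ± 1.93 in DCRT-KO (log2 difference 0.69, limma adjusted p = 0.132). CEBPB had 9.76 ± 3.19 and 8.20 ± 1.62 FPKM (-0.20, adjusted p = 0.662). ATF3 and JDP2 averaged below 1 FPKM over the 6 libraries, and NUPR1 had no read in any library.

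The other amino acid and one-carbon enzymes were higher in DCRT-KO by their values in 9 of 11 genes (median 0.26), against 47.2% of all tested genes. None passed in limma or voom. An unadjusted p below 0.05 was reached by 3 and 2 of the 11, against 23.6% and 24% of all tested genes. SHMT2, which turns serine into glycine in mitochondria, had 29.3 ± 4.67 FPKM in WT against 32.8 ± 6.61 in DCRT-KO (log2 difference 0.15, limma adjusted p = 0.697). PYCR1, of proline synthesis, had 25.1 ± 8.43 and 32.7 ± 12.5 FPKM (0.33, adjusted p = 0.559). Among 6 amino acid transporters 4 had lower values, SLC7A11 included, with a median of -0.22, against 6045 of all 11445 tested genes lower. In limma 3 of the 6 had an unadjusted p below 0.05, 1 higher and 2 lower, against 23.6% of all tested genes. In voom 2 of the 6 fell, against 3.4% of all tested genes. SLC38A2, a sodium-coupled importer of small neutral amino acids, fell with voom (log2 difference -0.91, adjusted p = 0.0119; 0.1004 in limma). SLC1A4, named knowing its values, was higher in DCRT-KO without overlap (log2 difference 0.60, limma adjusted p = 0.106; 0.0748 with voom). Aminoacyl-tRNA synthetases had higher values in 10 of 12 genes, with a median of 0.20, against 47.2% of all tested genes with a median of -0.04. None passed in limma, and 3 had an unadjusted p below 0.05, against 23.6% of all tested genes. With voom 2 of the 12 rose, against 5.85% of all tested genes. The seryl-tRNA synthetase SARS had 33.3 ± 4.58 FPKM in WT against 52.97 ± 5.61 in DCRT-KO (log2 difference 0.66, limma adjusted p = 0.0629; 0.0254 with voom). GARS had 36.5 ± 1.08 and 42.1 ± 8.37 FPKM (0.18, adjusted p = 0.55).

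None of 10 tested of 12 other ATF4 and CHOP targets passed in limma or voom, with 4 higher and 6 lower values and a median of -0.08. An unadjusted p below 0.05 was reached by 1 and 2 of them, against 23.6% and 24% of all tested genes. The death receptor TNFRSF10B had 60.9 ± 4.03 FPKM in WT against 56.7 ± 12.6 in DCRT-KO (log2 difference -0.12, limma adjusted p = 0.717), and the oxidoreductase ERO1A 44.6 ± 1.93 and 43.2 ± 7.27 (-0.06, adjusted p = 0.863). GDF15 and FGF21 encode secreted stress hormones. GDF15 averaged below 1 FPKM, with 7 reads (2.43 FPKM) in DCRT-KO library 3 and at most 2 reads in any other library, and FGF21 had no read. The XBP1 and ATF6 arms of the unfolded protein response had higher values in 11 of 15 genes, with a median of 0.27, against 47.2% of all tested genes. None passed in limma. An unadjusted p below 0.05 was reached by 6, of which 3 were higher and 3 lower, against 23.6% of all tested genes. With voom 1 of the 15 rose, against 5.85% of all tested genes. The chaperone CALR had 48.6 ± 7.46 and 67.1 ± 3.99 FPKM (log2 difference 0.47, limma adjusted p = 0.131), and EDEM1 51.96 ± 5.66 and 60.2 ± 16.9 (0.18, adjusted p = 0.634). With voom HSPA5, the chaperone BiP, rose (0.88, adjusted p = 0.0117; 0.0739 in limma). The 3 lower ones were ERN1, SEL1L and DNAJB11, with log2 differences of -1.13, -0.58 and -0.76 (limma adjusted p 0.101, 0.1 and 0.0792), named knowing their values. The 7 paralogs and partners had a median of -0.41, with 5 lower, against 6045 of all 11445 tested genes. None was past the threshold in limma, and 3 had an unadjusted p below 0.05, against 23.6% of all tested genes. With voom 1 of the 7 fell, against 3.4% of all tested genes. TRIB2 had 11.1 ± 1.78 and 11.9 ± 3.86 FPKM (0.06, adjusted p = 0.912), and SLC7A6, another light chain for 4F2hc, 13.2 ± 0.812 and 10.4 ± 5.06 (-0.41, adjusted p = 0.414).

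**Figure D4:**
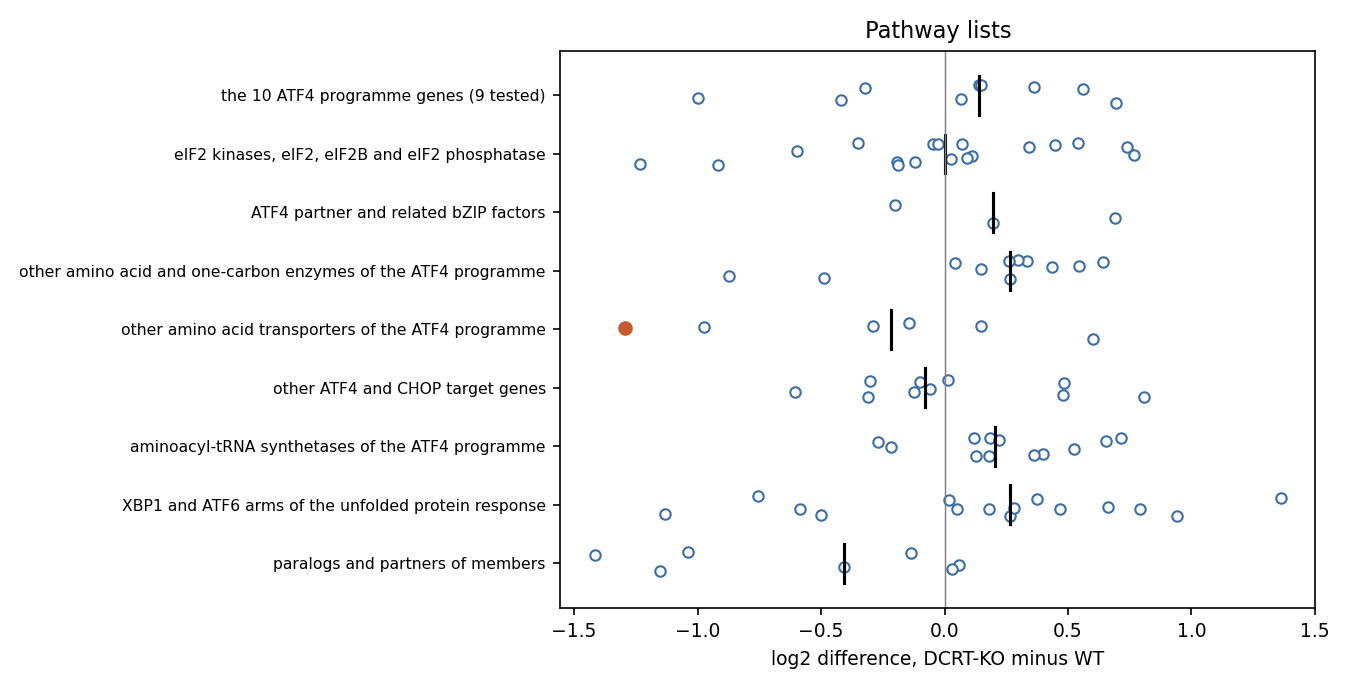
Log2 difference between DCRT-KO and WT PTBP1 RIP (horizontal axis) for each tested gene of the ATF4 programme genes and of 8 pathway lists (rows), with a black bar at each list's median. Filled orange marks limma adjusted p below 0.05, which SLC7A11 alone reached.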

How the data were processed

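PTBP1 RIP-seq libraries of AC16 cells, 3 DCRT-KO and 3 WT, were compared. Per the labels' protocols, library kits kept strand and reads were paired, from an Illumina HiSeq, and cutadapt 1.2.1 was used, per the submitters' processing notes. Aligner, counting tool and build: not given in the sources used here. What the authors deposited is 1 table of FPKM per gene, a unit relative to the library, so that a rise of some genes lowers the rest. Of its 20024 identifiers, 19999 were in GENCODE 29 (GRCh38), 19905 at overlapping positions and 12713 with the same start and end.

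Column names gave the sample for DCRT-KO. For WT, where 1 number stands on more than 1 column, they gave the group only, and a, b and c follow column order. No FPKM column was left unused (0). Multiplied by gene length, the deposited FPKM came out as whole multiples of 1 step per library in 100% of values (relative tolerance 1e-06), which gave whole reads. Replicates differed beyond sampling noise (chi-square of 2.82 to 5.88 for each degree of freedom). A count of 0 allows up to 3 reads, which covers counting error only.

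Genes averaging 1 FPKM or more (11445) entered limma 3.58.1 (R 4.3.3), two-sided, with log2(FPKM + 1) values, a trended prior variance and Benjamini-Hochberg adjustment over all of them (threshold 0.05). The fits were also run on simulated counts with the same scatter beyond counting in every library. Whether the real libraries share such a scatter was not tested, so that run gives no error rate for them. Members and lists were chosen with earlier results of these data known. By the rule set, the text names all 10 members, and from each other list up to 4 genes past the threshold or else the 2 with the highest mean. Outside that rule, GCN1, EPRS, HSPA5, SLC38A2, SLC1A4, SESN1, SESN3, ERN1, SEL1L and DNAJB11 were named knowing their values. ATF3, JDP2, NUPR1, GDF15 and FGF21, which were not tested, were named as well. The GC content and transcript length come from GENCODE 29, 1 principal transcript per gene. Alternatives were 0.1 as pseudocount, a filter of 5 FPKM or none, 3 rescalings, 2 forms of limma, voom on whole reads and each library left out. Those added after seeing the data were removal of each library's GC trend and leaving out both shallowest libraries. Python 3.11.15, NumPy 2.4.6 and pandas 2.3.3 prepared the tables.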

Additional observations from a re-analysis of the deposited data

How the results depend on the processing

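No paired analysis was possible because replicate numbers on the WT columns are repeated and pair with nothing. Of the 9 tested ATF4 programme genes, 0 rose and 0 fell; 1 rose with voom on whole reads (PHGDH), 1 fell with mitochondrially encoded genes left out and 1 with the GC trend removed (SESN2 both times). With each library left out, 0 to 1 rose and 0 fell. PHGDH, SESN2 and SLC3A2 kept their sign under the 17 alternatives run, as did TRIB3 and CHAC1, whose log2 differences ran from 0.29 to 0.95 and from 0.085 to 0.695.

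Over all genes, 269 rose and 137 fell. The numbers that rose and fell were 189 and 90 with a pseudocount of 0.1, 72 and 50 without a filter, 219 and 231 with quantile normalization, 186 and 328 without mitochondrially encoded genes, 70 and 64 without a variance trend, and 669 and 389 with voom. They were 100 and 67 with the GC trend removed, 31 and 13 without both shallowest libraries, and 0 to 724 and 0 to 836 with each library left out. In the 8 pathway lists 0 rose and 1 fell. None fell (0) without a filter, without a variance trend, with the GC trend removed or without both shallowest libraries. With a filter of 5 FPKM 1 rose (SARS). With median-of-ratios scaling, quantile normalization or no mitochondrially encoded genes 2 fell, with voom 4 rose and 3 fell, and with each library left out 0 to 5 rose and 0 to 8 fell. The causes were not tested.

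Sign changes were seen in genes that passed in neither setting. With mitochondrially encoded genes left out, the log2 difference was -0.0083 for ATF4, -0.086 for PSAT1, -0.0056 for SLC7A5, -0.0026 for SHMT2 and -0.083 for TRIB2. With quantile normalization it was -0.17 for PSAT1 and -0.0016 for SLC7A5. With the GC trend removed it was -0.030 for ATF4, -0.12 for SLC7A5, 0.17 for EIF2S3 and 0.26 for ERO1A. Without both shallowest libraries it was -0.085 for ATF4, 0.071 for CEBPB, 0.20 for ERO1A, 0.28 for SLC7A6 and 0.22 for TNFRSF10B. With 1 library left out at a time, it ran from -0.045 to 0.25 for ATF4, from -0.70 to 0.0037 for ASNS, from -0.12 to 0.19 for PSAT1, from -0.34 to 0.029 for CEBPB, from -0.037 to 0.31 for EDEM1, from -0.11 to 0.026 for EIF2S3, from -0.19 to 0.035 for ERO1A and from -0.12 to 0.33 for TRIB2.

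Depth limits DDIT3 and ASNS most, with at most 21 reads in a library.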

Other observations

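Among 4256 genes averaging 10 FPKM or more, the log2(FPKM + 1) values most like those of ATF4 over the 6 libraries were those of MRPL36, a mitochondrial ribosomal protein (Pearson r = 0.979), SCAF8 (0.974) and PYURF (0.972). Each was highest in DCRT-KO library 2, the shallowest, with 36.5, 21.0 and 20.4 FPKM there and 12.98, 10.7 and 9.94 in library 3. With 6 libraries, 48 genes reached a correlation above 0.9, and the values are a description that rests on library 2.

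Among the 10 genes themselves, the Pearson correlation over the 6 libraries was highest for ASNS with SLC3A2 (0.944), both lowest in DCRT-KO library 1, and for TRIB3 with SLC7A5 (0.912). It was lowest for SESN2 with CHAC1 (-0.708) and with PHGDH (-0.686). These are the extremes of all pairs of the 10 genes, given as a description, and differences between the groups enter them. ASNS had 0 reads in DCRT-KO library 1.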
